A study of Homo sapiens with 2 samples.

Results

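CHCHD genes encode small mitochondrial proteins that carry a coiled-coil-helix-coiled-coil-helix fold, held together by disulfide bonds between cysteines spaced in a twin CX9C pattern, that is, pairs of cysteines with 9 other residues between them. Their expression was compared between wild-type (WT) and MEIS2-/- cells. The 8 genes CHCHD1, CHCHD2, CHCHD3, CHCHD4, CHCHD5, CHCHD6, CHCHD7 and CHCHD10 were all found among the 17397 genes of both libraries by their NCBI Gene numbers. The set was chosen by the values of CHCHD2 in this same contrast, which had already been seen, and was filled up with its relatives by family name, so its values are given as a description and no difference was tested. H1 is a long-established human embryonic stem cell line, and the labels describe both libraries as H1 cells at day 4 of hematopoietic differentiation, 1 with the wild-type genotype and 1 with MEIS2 deleted on both alleles. Both cultures received activin A and BMP4 first and VEGF and bFGF afterwards. The MEIS2-/- lines were single-cell clones made by CRISPR/Cas9 with a lentiviral vector under puromycin selection, and the sources used here do not say which clone was sequenced. With 1 library per genotype there is no spread between replicates, so the effect of the genotype, the clone and the culture cannot be told apart.

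Most twin CX9C proteins are made in the cytosol and trapped in the space between the mitochondrial membranes when the oxidoreductase CHCHD4, also called MIA40, puts in their disulfide bonds. The members then part ways. CHCHD3 and CHCHD6 join the MICOS complex that shapes cristae, CHCHD1 is a protein of the small mitochondrial ribosomal subunit, CHCHD7 is the counterpart of a yeast factor for cytochrome c oxidase, and the paralogs CHCHD2 and CHCHD10 bind each other and support the respiratory chain. CHCHD2 is also found in the nucleus, where it activates COX4I2, the gene for the oxygen-regulated isoform of cytochrome c oxidase subunit 4. In human pluripotent stem cells CHCHD2 is known to bind SMAD4 and to differ in level between lines.

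The signature of the family can be read in the coding sequence. The stretch from the first to the last cysteine of the twin motif is shown for CHCHD2 and CHCHD10, the pair whose values moved most in the family, with the 4 cysteine codons in capitals. The sequences are those of GENCODE 29 transcripts matched to the RefSeq accessions in the tables, read 5′ to 3′ along the mRNA. Both lie on the minus strand of GRCh38, in exon 3 of the transcript, at chr7:56102880-56102972 for CHCHD2 and at chr22:23766141-23766233 for CHCHD10.
CHCHD2: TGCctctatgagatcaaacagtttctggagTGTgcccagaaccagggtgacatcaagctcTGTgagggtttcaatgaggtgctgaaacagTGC
CHCHD10: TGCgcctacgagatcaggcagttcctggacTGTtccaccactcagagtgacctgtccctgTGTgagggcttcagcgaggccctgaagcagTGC

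These stretches were 93 bases long in both genes and identical at 67 positions (72%), with all cysteine codons aligned. In CHCHD2 the cysteines were codons 114, 124, 134 and 144 of 151, and in CHCHD10 codons 109, 119, 129 and 139 of 149. These cysteines are evenly spaced, with 9 codons between the 2 pairs. The other 6 members also held the twin motif, with 10 codons between the pairs in CHCHD1, CHCHD3, CHCHD5, CHCHD6 and CHCHD7 and 12 in CHCHD4. Although the paralogs are related, the longest run of bases shared by the CHCHD2 and CHCHD10 transcripts was 11, and no other member shared a longer run with CHCHD2. CHCHD2 does have processed pseudogenes. RefSeq names 11, none of which is listed in the tables, and the 10 annotated in GENCODE 29 share runs of 19 to 132 bases with the CHCHD2 mRNA. How reads that match CHCHD2 and such a copy were assigned is not given in the sources used here, so the CHCHD2 values carry that uncertainty.

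Expression was deposited as FPKM, a level scaled to transcript length and to the total of mapped fragments, so that values can be compared between genes. The CHCHD2 mRNA, under NCBI Gene number 51142, was abundant in the WT library at 101.30 FPKM and close to absent in the MEIS2-/- library at 0.18 FPKM. In WT cells it was thus the highest of the 8 members and in MEIS2-/- cells the lowest. The MEIS2-/- value was 0.178% of the WT value, and the log2 ratio of MEIS2-/- over WT was -8.50 after 0.1 FPKM was added to each value, which makes ratios of low values look smaller. CHCHD2 stood above 96.0% of all listed genes in WT cells, whereas in MEIS2-/- cells only 14.4% of listed genes were at or below its level.

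**Figure D1:**
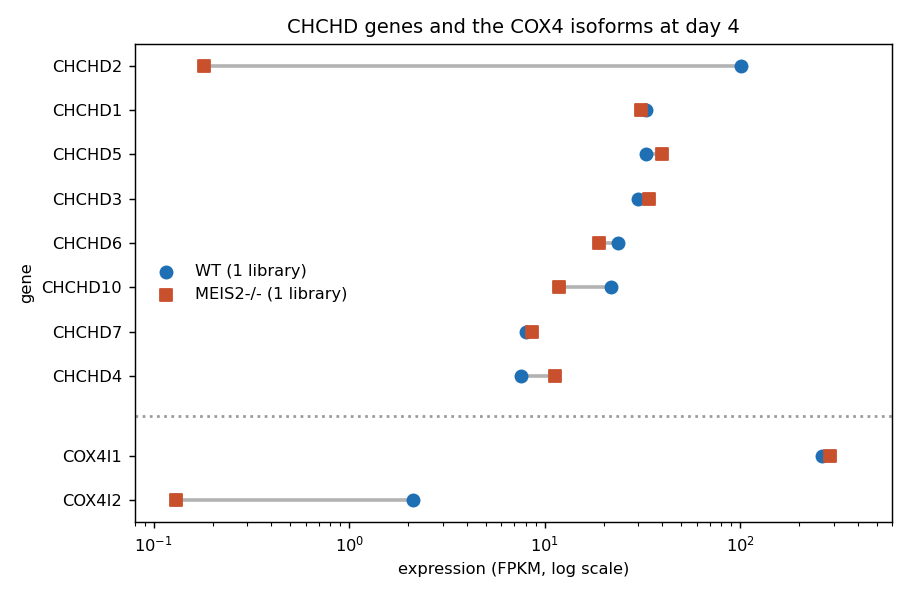
Expression of the 8 CHCHD genes (above the dotted line) and of the 2 isoforms of cytochrome c oxidase subunit 4 (below it) in FPKM on a log axis, with WT as circles and MEIS2-/- as squares, 1 library each and no error bars. CHCHD2 spans 101.30 to 0.18 FPKM, while the 2 values of every other CHCHD gene lie within 2-fold of each other.

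A gene was compared when either library reached 1 FPKM, and among the 13075 such genes CHCHD2 had the lowest log2 ratio. Next came H4C12, a histone H4 gene, at 8.53 FPKM in the WT library and listed at 0 in the MEIS2-/- library. With a pseudocount of 0.01 FPKM in place of 0.1, CHCHD2 ranked 3. Among the 3754 genes at 20 FPKM or more in WT cells, 3 were below 1 FPKM in MEIS2-/- cells, namely CHCHD2, ANKRD37 and NDUFA4L2, and no gene went the opposite way among the 3988 at 20 FPKM or more in MEIS2-/- cells. Because CHCHD2 was chosen by its values, its rank and the genes of similar WT level are given only as a description. The other 176 genes within 10% of its WT value (91.21 to 111.33 FPKM) had a median of 99.6 FPKM in MEIS2-/- cells. The lowest of them was TXNIP, the thioredoxin-interacting protein, at 103.41 FPKM in WT and 4.26 FPKM in MEIS2-/- cells.

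**Figure D2:**
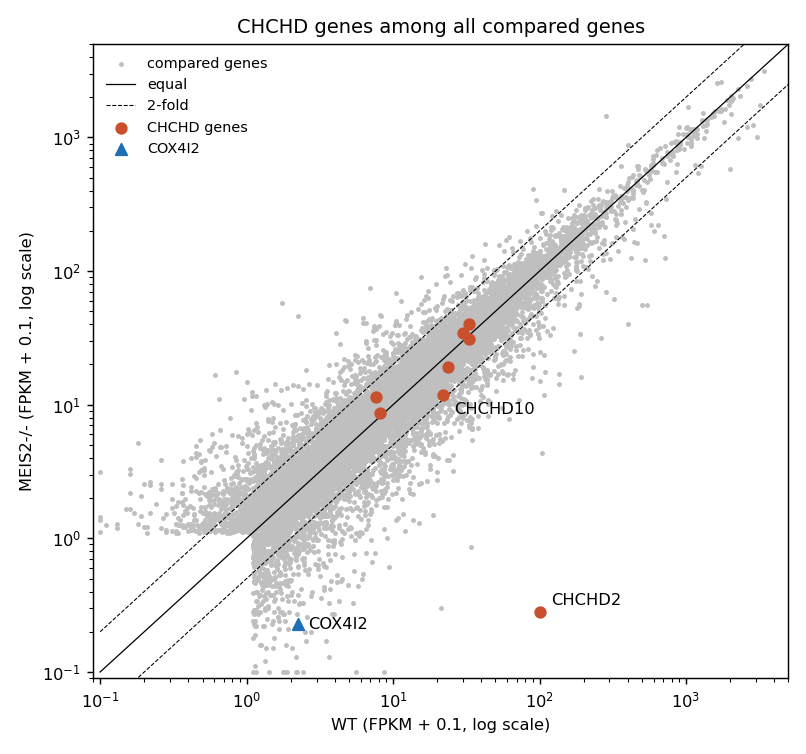
Each point is 1 of the compared genes with a symbol, with WT on the horizontal and MEIS2-/- on the vertical axis as FPKM + 0.1 on log scales, a solid line for equal values and dashed lines for 2-fold differences. CHCHD2, at 101.30 and 0.18 FPKM, lies far below the cloud, the other 7 CHCHD genes lie between the dashed lines, and COX4I2 lies below them.

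The genes whose pair of values lay nearest to those of CHCHD2 were sought by Euclidean distance on the log2 scale, over the 2 libraries. All 5 nearest genes were lower than CHCHD2 in WT cells, and the distances were large. ANKRD37, an ankyrin repeat gene known as a hypoxia target, was at 33.68 and 0.76 FPKM in WT and MEIS2-/- cells, a distance of 2.27. NDUFA4L2, named COXFA4L2 in current RefSeq and also known to be induced by hypoxia, was at 20.99 and 0.20 FPKM, likewise at a distance of 2.27. SIGLEC15, SDCBP2 and HES7 followed at distances from 3.42 to 3.62.

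CHCHD10 had the next lowest ratio in the family. Its level was 21.93 FPKM in WT and 11.80 FPKM in MEIS2-/- cells, 53.8% of the WT value, with a log2 ratio of -0.89. That falls short of the 2-fold mark, but when the MEIS2-/- library was rescaled so that genes reaching 5 FPKM in both libraries had a median ratio of 0 (the median rescaling), it became -1.003 and just passed it. The balance within the pair was inverted. CHCHD2 was 4.62 times CHCHD10 in WT cells, and CHCHD10 was 65.6 times CHCHD2 in MEIS2-/- cells. CHCHD10 mRNA was thus not higher in the library where CHCHD2 mRNA was nearly absent.

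The 6 remaining members stayed within 1.5-fold. CHCHD4, the import oxidoreductase, was the member with the highest ratio, with 7.60 FPKM in WT and 11.29 FPKM in MEIS2-/- cells, a log2 ratio of 0.56. The MICOS pair went apart, with CHCHD3 at 30.07 and 34.23 FPKM (log2 ratio 0.19) and CHCHD6 at 23.56 and 18.96 FPKM (log2 ratio -0.31). CHCHD1, of the mitochondrial ribosome, was at 33.09 and 31.06 FPKM, a log2 ratio of -0.09. CHCHD5, a twin CX9C protein of little-known function, was at 32.92 and 39.76 FPKM, a log2 ratio of 0.27. CHCHD7 was at 8.01 and 8.59 FPKM, a log2 ratio of 0.10 that turned slightly negative under both rescalings tried. Depth and replicate spread are unknown, so none of these small differences can be read as a change, and CHCHD1 and CHCHD5 in WT cells cannot be placed in order.

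In all, 1 of the 8 members (12.5%) was at least 2-fold lower in MEIS2-/- cells, beside 7.97% of the 13075 compared genes, and none was at least 2-fold higher, beside 7.84%. The first count is the value by which the set was chosen and is given only for completeness. The median log2 ratio of the 8 members was 0.00, and that of the 7 without CHCHD2 was 0.10, beside 0.12 for all compared genes. After the median rescaling these family medians were -0.11 and -0.01, so their sign depends on the scaling. Summed over those 7 genes, the level was 157.18 FPKM in WT and 155.69 FPKM in MEIS2-/- cells. Summed over all 8, it was 258.48 FPKM and 155.87 FPKM. CHCHD2 made up 39.2% of the family sum in WT and 0.115% in MEIS2-/- cells, so nearly the whole difference in the family total lay in this 1 gene.

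COX4I2 is the best-known gene activated by CHCHD2 in the nucleus. Its level was 2.13 FPKM in WT and 0.13 FPKM in MEIS2-/- cells, 6.10% of the WT value, with a log2 ratio of -3.28 that shrank to -1.47 with a pseudocount of 1 FPKM because both values were low. The common isoform COX4I1 was at 260.38 and 286.97 FPKM. COX4I2 thus made up 0.811% of the summed COX4 isoform level in WT cells and 0.0453% in MEIS2-/- cells, a minor share in either. The DNA-binding factors that act with CHCHD2 at COX4I2 did not show such a difference, with RBPJ at 9.81 and 12.11 FPKM (log2 ratio 0.30) and CXXC5 at 66.02 and 52.24 FPKM (log2 ratio -0.34). A link between the CHCHD2 and COX4I2 values was not tested.

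Genes for other proteins that bind, modify or cut CHCHD2, or act with the pair, were expressed in both libraries. Of 11 such genes, all were compared. None was past 2-fold, beside 7.97% of all compared genes at least 2-fold lower and 7.84% at least 2-fold higher. The median log2 ratio of the 11 was 0.17 as deposited, beside 0.12 for all compared genes, and 0.05 after the median rescaling. They ran from CXXC5 as the lowest to C1QBP, a matrix protein that binds CHCHD2, at 115.63 and 161.68 FPKM (log2 ratio 0.48). SMAD4 was at 6.87 and 7.72 FPKM, and the protease YME1L1, which degrades CHCHD2, was at 27.26 and 26.92 FPKM. BAX and its inhibitor BCL2L1, whose contact CHCHD2 favours, were at 283.44 and 255.04 FPKM and at 66.28 and 67.67 FPKM. For the OPA1 processing protease OMA1, known to be activated when CHCHD2 and CHCHD10 are lost, the values were 1.64 and 2.33 FPKM.

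Genes for the wider set of twin CX9C proteins are given beside the family as a description. Of 16 such genes outside the CHCHD names, all 16 were compared. None was past 2-fold, beside 7.97% of all compared genes at least 2-fold lower and 7.84% at least 2-fold higher. The median log2 ratio of the 16 was 0.03 as deposited and -0.09 after the median rescaling, so their direction depends on the scaling. The lowest was COX6B2, the testis-type isoform of a cytochrome c oxidase subunit, at 1.76 and 1.06 FPKM (log2 ratio -0.68). The highest was COA4, a cytochrome c oxidase assembly factor formerly named CHCHD8, at 62.71 and 94.95 FPKM (log2 ratio 0.60). The copper chaperone COX17 was at 43.31 and 39.63 FPKM, and the abundant respiratory chain subunits NDUFS5 and UQCRH were at 218.12 and 226.00 FPKM and at 206.92 and 208.47 FPKM. CHCHD2 was chosen by its values and had the lowest ratio of all compared genes. No gene of this set could therefore lie lower.

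Genes for the machinery that imports these proteins were expressed in both libraries. All 8 genes of the disulfide relay and the small TIM chaperones had a ratio above 0, also after the median rescaling, with a median of 0.44 as deposited and 0.33 rescaled, beside 0.12 for all genes as deposited. Most compared genes were likewise above 0 as deposited. Of the 8, only TIMM8B, a small TIM chaperone, was past 2-fold (beside 7.84% of all compared genes at least 2-fold higher). It was at 17.83 and 35.89 FPKM, a log2 ratio of 1.01 that fell to 0.89 after the median rescaling. The lowest was TIMM9, at 10.57 and 11.64 FPKM (log2 ratio 0.14). GFER, the sulfhydryl oxidase that recharges CHCHD4, was at 20.45 and 23.11 FPKM, and AIFM1, which anchors CHCHD4, was at 14.80 and 20.61 FPKM. All ratios but that of TIMM8B were below 2-fold, and no spread is available to set any of them against.

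Of 9 genes of MICOS and the outer membrane SAM complex, none was past 2-fold. Over all compared genes, 7.97% were at least 2-fold lower and 7.84% at least 2-fold higher. A list of 9 is too short to differ clearly from those shares. The median log2 ratio of the 9 was 0.31 as deposited and 0.19 after the median rescaling. IMMT, the core subunit MIC60 to which CHCHD3 binds, was at 31.81 and 31.85 FPKM. APOOL was the highest in ratio at 1.46 and 2.50 FPKM (log2 ratio 0.74), and APOO, the other apolipoprotein O family subunit, the lowest at 11.28 and 9.06 FPKM (log2 ratio -0.31). Of 29 further genes of the small mitochondrial ribosomal subunit, to which CHCHD1 belongs, none was past 2-fold (beside the same shares). Their median log2 ratio was 0.35, beside 0.12 for all compared genes. Most compared genes were above 0 as deposited, and 25 of these 29 were (21 after the median rescaling). MRPS7 had the highest ratio, at 26.17 and 48.72 FPKM (0.89), and MRPS6 the lowest, at 102.04 and 80.33 FPKM (-0.34). CHCHD1, with a log2 ratio of -0.09, lay in the lower part of that range.

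Of 17 cytochrome c oxidase subunit genes, 13 passed the filter of 1 FPKM and COX4I2 was the only one of these past 2-fold. Of all compared genes, 7.97% were at least 2-fold lower and 7.84% at least 2-fold higher. The median log2 ratio of the 13 was 0.13 as deposited, beside 0.12 for all compared genes, and 0.01 after the median rescaling. The next lowest after COX4I2 was again COX6B2, and the highest was COX5A at 90.59 and 107.93 FPKM (0.25). Tissue-restricted isoforms COX6A2, COX7A1, COX7B2 and COX8C were below the filter in both libraries. Of 11 mitochondrial chaperones and proteases, none was past 2-fold (beside the same shares of all compared genes). Their median was 0.23 as deposited and 0.11 after the median rescaling. They ranged from the protease LONP1 at 84.01 and 67.05 FPKM (-0.32) to the co-chaperonin HSPE1 at 66.58 and 101.17 FPKM (0.60). The 13 protein genes of mitochondrial DNA are not listed in the tables and were not analysed here. In the lists above, COX4I2 was thus the only gene besides CHCHD2 that was at least 2-fold lower.

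The position of CHCHD2 on chromosome 7 was examined next, to see whether its neighbours had lower values too. Of the 6 nearest listed protein-coding genes on each side, 7 of 12 were compared. None of the 7 was at least 2-fold lower, beside 7.97% of all compared genes. At least 2-fold higher was 1, ZNF107, beside 7.84%. With 7 genes, such counts cannot be set apart from those shares. The log2 ratios of the 7 ran from -0.84 to 1.12. On the PHKG1 side, CCT6A, a subunit of the cytosolic chaperonin, was at 91.80 and 114.92 FPKM, SUMF2 at 53.69 and 50.04 FPKM, and the serine synthesis enzyme PSPH at 21.47 and 21.05 FPKM. The immediate neighbours PHKG1, at 0.26 and 0.04 FPKM, and NUPR2, at 0.39 and 0.29 FPKM, were too low in both libraries to be compared. On the NUPR2 side only the zinc finger genes ZNF680, at 2.53 and 1.37 FPKM, and ZNF107, at 0.79 and 1.84 FPKM, passed the filter. Among the other genes of that side, all below the filter, ZNF736 was at 0.63 and 0.06 FPKM, ZNF716 at 0.61 and 0.40 FPKM and ZNF679 at 0 and 0.02 FPKM, so 4 of its 6 genes had the lower value in MEIS2-/- cells. The neighbours above 10 FPKM, MRPS17 (10.03 and 12.85 FPKM), NIPSNAP2 (16.79 and 19.89 FPKM), PSPH, CCT6A and SUMF2, all lay on the PHKG1 side and none was near 2-fold lower, whereas the genes on the NUPR2 side were too low to show much. Across chromosome 7, 609 compared genes had a median log2 ratio of 0.16.

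The promoter of CHCHD2 is shown because transcription from this start gives the mRNA that was nearly absent in MEIS2-/- cells. No measurement of the promoter itself was analysed here. The sequence is from RefSeq on GRCh38.p14, chr7:56106427-56106726 on the minus strand, read 5′ to 3′ in the direction of transcription from 250 bases before the start to 50 after it. Capitals mark the letters CACGT, the reverse complement of ACGTG, which was among the motifs searched.
CHCHD2: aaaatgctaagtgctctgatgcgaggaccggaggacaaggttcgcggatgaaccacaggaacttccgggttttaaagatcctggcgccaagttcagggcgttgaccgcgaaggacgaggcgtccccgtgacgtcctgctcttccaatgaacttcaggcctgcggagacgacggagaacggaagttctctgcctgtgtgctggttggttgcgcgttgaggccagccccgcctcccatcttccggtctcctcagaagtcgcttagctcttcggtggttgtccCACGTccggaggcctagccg

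Across this window CHCHD2 held 26 CpG dinucleotides, more than 69.9% of the 35116 RefSeq promoters of the same length, whose median was 14. On both strands, 3 motifs were searched, ACGTG for hypoxia-inducible factors, TGGGAA for RBPJ and TGACAG for MEIS factors. The first was found once, on the reverse strand from position 31 after the start, and the others were not found. Of all promoters, 21.4% held ACGTG, 24% TGGGAA and 15.8% TGACAG. The CHCHD10 window, at 23 CpG dinucleotides, held none of these 3 strings of letters. For hypoxia-inducible factors only ACGTG was searched. A spelling such as GCGTG, which is present in the CHCHD10 window, was not counted in any window or in the share. Among the other members with an entry, ACGTG was found in the window of CHCHD6 and in 1 of the 3 windows of CHCHD5, TGGGAA in those of CHCHD3 and CHCHD4 and in 1 of the 3 of CHCHD5, and TGACAG in 1 of the 3 of CHCHD5. Such matches describe letters in a short window and were not tested against the values.

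MEIS2 itself, the targeted gene, had 10.85 FPKM in WT and 3.44 FPKM in MEIS2-/- cells, a log2 ratio of -1.63. Small edits that disrupt a reading frame need not remove the mRNA, so this is a weak check of the label. Markers of several cell types also differed between the libraries. In bulk RNA, fewer cells of a type and less RNA per cell cannot be told apart. The summed level of 8 endothelium markers was 434.18 FPKM in WT and 103.32 FPKM in MEIS2-/- cells. This was mostly through KDR, without which the sums were 110.41 and 41.34 FPKM. All 8 were lower and 5 at least 2-fold lower (beside 7.97% of all compared genes), and PECAM1 was low in both at 1.53 and 0.93 FPKM. For 6 blood markers the sums were 8.83 and 5.08 FPKM. Only 3 of them passed the filter, all 3 lower and 2 at least 2-fold lower (beside 7.97% of all compared genes). The count of 2 became 0 with a pseudocount of 1 FPKM. PTPRC (0.45 and 0.89 FPKM) and RUNX1 (0.71 and 0.87 FPKM), both below the filter, had the higher value in MEIS2-/- cells. For 6 mesenchyme markers the sums were 562.30 and 236.40 FPKM, mostly through COL1A1, without which they were 98.21 and 75.53 FPKM. Lower values were found for 4 of the 5 compared and passed 2-fold for 2 (beside 7.97% of all compared genes). COL3A1 was at 38.58 and 41.47 FPKM, a ratio whose sign turned under either rescaling. In the opposite direction, 6 markers of undifferentiated cells summed to 536.62 and 1792.32 FPKM, mostly through POU5F1, without which the sums were 250.97 and 338.18 FPKM. Higher values were found for 4 of the 5 compared and passed 2-fold for 2 (beside 7.84% of all compared genes), whereas TDGF1 was at 24.82 and 20.66 FPKM and LIN28A at 187.31 and 204.79 FPKM, and SOX2 was below the filter at 0.09 and 0.15 FPKM. The 6 endoderm markers summed to 193.46 and 361.67 FPKM, mostly through SOX17, without which the sums were 52.45 and 97.64 FPKM. All 6 were higher and 4 at least 2-fold higher (beside 7.84% of all compared genes). FOXA2, at 43.06 and 49.12 FPKM (log2 ratio 0.19), was near the median of 0.12 for all compared genes. The part of these differences in the CHCHD values was not tested.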

How the data were processed

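BGI sequenced RNA from day 4 of differentiation, with 1 library per genotype. According to the submitters' processing notes, BWA, Bowtie and RSEM were used with hg19; their roles and versions are not given in the sources used here. The authors deposited FPKM values with 2 decimals for 17397 genes by NCBI Gene number, of which 17365 matched a RefSeq symbol. FPKM holds no counts. Low values of single-transcript genes (817 in WT, 871 in MEIS2-/-) did not fall on whole-read steps (best agreement 0.114 and 0.123, where 1 is complete), so depth is unknown and no counting interval is given. The FPKM summed to 447542 and 440651.

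Log2 ratios were computed after adding 0.1 FPKM, over the 13075 genes that reached 1 FPKM in either library. A 2-fold difference was counted, and no test was possible. Among 8092 genes reaching 5 FPKM in both libraries the median log2 ratio was 0.12, so values close to this are near the library's centre. Alternatives were pseudocounts of 1 and 0.01 FPKM, no filter or 5 FPKM, 1.5-fold or 4-fold, and rescaling by that median or by TMM (a trimmed mean of log ratios, trimming 30% of log ratios and 5% of means per side). The computation was tested on the WT values with planted fold changes and a planted offset. No noise was added, so this checked the arithmetic only.

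The members and lists were chosen with earlier results of these data known. Genes named are the members, COX4I2, MEIS2 and, per list, those past 2-fold or else the highest and lowest, genes whose role is described beside a member, the 5 genes nearest to CHCHD2 and its 6 neighbours per side. The comparison with genes of similar WT level and the sequence searches were added after the values were seen. Sequences and their positions are on GRCh38, not the authors' hg19, and no other coordinates were used. Computations ran in Python 3.11.15 with pandas 2.3.3 and numpy 2.4.6, and matplotlib 3.10.9 drew the plots.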

Additional observations from a re-analysis of the deposited data

How the results depend on the processing

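With 1 library per genotype, depth unknown and no replicate spread, a value counts here as unchanged when it stays on its side of the 2-fold mark. No paired analysis was possible because each genotype has 1 library. The log2 ratio of CHCHD2 ran from -9.06 with a pseudocount of 0.01 FPKM to -6.44 with 1 FPKM, always past 2-fold lower. The count of CHCHD genes at least 2-fold lower was 1 as deposited and became 2, with CHCHD10, after the median rescaling (it stayed 1 with TMM scaling) and 2 at a threshold of 1.5-fold. No member was past 2-fold higher under any of the 8 alternatives. Of 40 alternative ratios of the 8 members, COX4I2 and MEIS2, 39 stayed on their side, the exception being CHCHD10 at -1.003. The sign of CHCHD7 changed under both rescalings (-0.014 and -0.0035). TIMM8B passed 2-fold neither with a rescaling nor with a pseudocount of 1 FPKM. Counts in gene lists moved as well, for example blood markers at least 2-fold lower went from 2 to 0 with a pseudocount of 1 FPKM or a filter at 5 FPKM, mesenchyme markers lower from 2 to 0 at 4-fold, endothelium markers lower from 5 to 8 at 1.5-fold and to 2 at 4-fold, and cytochrome c oxidase subunits higher from 0 to 2 without a filter. Over all genes, 1042 were lower and 1025 higher as deposited, 1197 and 833 after the median rescaling, 693 and 623 with a pseudocount of 1 FPKM, 598 and 554 with a filter at 5 FPKM, 1516 and 1567 without a filter, 1890 and 2353 at 1.5-fold and 241 and 194 at 4-fold.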
